A study of Homo sapiens with 6 samples.

Results

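The mRNAs of 7 genes of sterol and fatty acid synthesis (HMGCS1, IDI1, FDFT1, SQLE, INSIG1, FASN and SCD) were followed in a count table of 26364 gene symbols. The genes were taken by name, and all 7 were in the table and among the 8070 genes with enough counts to be tested. The table covers 6 libraries of short RNAs and decay fragments from HEK293T, a line derived from human embryonic kidney cells. All 6 came from cells given okadaic acid at 200 nM for 3 h, so no untreated group was compared. The drug inhibits protein phosphatases, and phosphorylated UPF1 then accumulates. In one group of 3 libraries RNA was recovered by immunoprecipitation of phosphorylated UPF1 (p-UPF1 IP), and these are called IP 3, IP 6 and IP 9 after their replicate numbers. The other 3, called pre-IP 1, 4 and 7, are titled pre-IP but carry a rabbit IgG antibody label, so it is not settled whether they are input RNA or a mock precipitation. Separate cultures are not mentioned for the replicates, and p-values therefore reflect only how far these libraries vary, possibly for technical reasons.

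Cells make cholesterol from acetyl-CoA through the mevalonate pathway. HMGCS1 forms HMG-CoA near its start, IDI1 interconverts the isoprenoid building blocks, FDFT1 joins farnesyl units into squalene and SQLE oxidises squalene ahead of ring closure. FASN builds palmitate and SCD puts the first double bond into saturated fatty acids. SREBP transcription factors drive the genes of both arms, and INSIG1 holds the SREBP escort protein SCAP in the endoplasmic reticulum when sterols are plentiful. UPF1 is an RNA helicase that acts where ribosomes terminate. It is phosphorylated on mRNAs marked for nonsense-mediated decay (NMD), among which long 3' UTRs, exon junctions downstream of the stop codon and upstream start codons are known features.

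Because UPF1 acts at terminating ribosomes, the stretch around the stop codon is shown for 4 of the 7 mRNAs. Each window runs 5' to 3' with 18 bases of coding sequence, the stop codon in capitals and the first 9 bases of the 3' UTR, read from the GENCODE 29 transcript named (GRCh38 annotation, sense strand).
HMGCS1 (ENST00000325110.10, stop codon from base 1768): attagtaatggggaacatTAAgatactctg
IDI1 (ENST00000429642.2, from base 1333): gagaaaatatacagaatgTGAatatgtagg
INSIG1 (ENST00000340368.8, from base 1043): gaaaagccccatagtgatTGAgtcttcaaa
SCD (ENST00000370355.2, from base 1459): ggaaactacaagagtggcTGAgtttggggt
INSIG1, which was lower in the p-UPF1 IP, and SCD, which was higher, both end in TGA, the stop codon of 48.0% of the tested protein-coding genes.

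None of the 7 transcripts had an exon beyond the one that holds the stop codon, a feature of 3.92% of the 7467 tested protein-coding genes with a transcript. The 3' UTRs ranged from 338 nt in SQLE to 3901 nt in SCD, against a median of 1327 nt. INSIG1 (1965 nt, longer than in 64.3% of those genes) and IDI1 (2035 nt) lay above that median, and FASN (810 nt) below it. FASN had the longest transcript, 8565 nt (longer than 92.3%), and the highest GC content, 65.3% (above 98.1%). The other 6 transcripts ranged from 2660 to 5362 nt and from 40.2% to 48.6% GC. Upstream ATG triplets numbered 7 in the 5' UTR of IDI1, 2 in SQLE and FASN, 1 in INSIG1 and FDFT1, and 0 in HMGCS1 and SCD, and 52.3% of the tested genes had at least 1. The pentamer ATTTA, a piece of AU-rich elements, occurred 12 times in the 3' UTR of IDI1, 6 times in that of INSIG1 and 2 to 5 times in the others (median of the tested genes, 2). The transcript that these cells used was not measured.

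The pre-IP libraries held 600244 to 1179369 counts and the p-UPF1 IP libraries 905926 to 2057647. Protein-coding genes took 23.8% to 35.3% of pre-IP counts but 55% to 73.3% of p-UPF1 IP counts, so levels depend on how libraries are scaled. Levels are given as CPM, counts scaled to a common library size after TMM, a method that assumes most genes do not change. The median log2 fold change of all tested genes was 0.10 on that scale and 1.63 with library totals alone. After TMM a CPM is a level relative to other genes, so less of one mRNA and more of the others cannot be told apart. Such a CPM is not a share of a library's counts, and the measures can differ. The mean share of IDI1 was 0.0039% before scaling for pre-IP libraries but 0.0076% for p-UPF1 IP libraries, whereas its mean CPM fell from 68.1 to 44.5. For INSIG1 both measures fell, the mean share only from 0.0084% to 0.0062%. Of 7 genes known from HEK293 cells, 6 could be tested and 0 changed by edgeR (1 at an unadjusted p below 0.05, 1 by DESeq2 and 0 by limma-voom), among them VIM, with mean levels of 265.7 and 473.2 CPM (adjusted p = 0.0738). Of all tested genes 8.81% were called higher and 10.9% lower, so 0 of 6 does not show unchanged levels. Of the 6, 4 had positive and 2 negative log2 fold changes. PAX2 had 0 counts in pre-IP and 9 in the p-UPF1 IP. Of 13 markers of hepatocytes, adipocytes, blood, fibroblasts and muscle 8 were at 0 in every library, and together they took at most 0.000883% of a library.

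Of the 7 mRNAs, 2 rose, FASN and SCD, and 1 fell, INSIG1, in the p-UPF1 IP relative to pre-IP. The 4 sterol enzymes did not pass the test. Among all tested genes 8.81% were called higher and 10.9% lower (edgeR quasi-likelihood F-test, Benjamini-Hochberg adjusted p below 0.05). These include non-coding RNAs, and the lists below are set beside them. Of the 7467 tested protein-coding genes alone, 685 were higher and 588 lower, with a median log2 fold change of 0.15. The CPM of the groups did not overlap for 4 of the 7, namely IDI1, INSIG1, FASN and SCD, beside 39.7% of all tested genes. The median log2 fold change of the 7 was -0.51. With 7 genes, neither count sets them apart from the background, and the genes differed in direction.

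**Figure D1:**
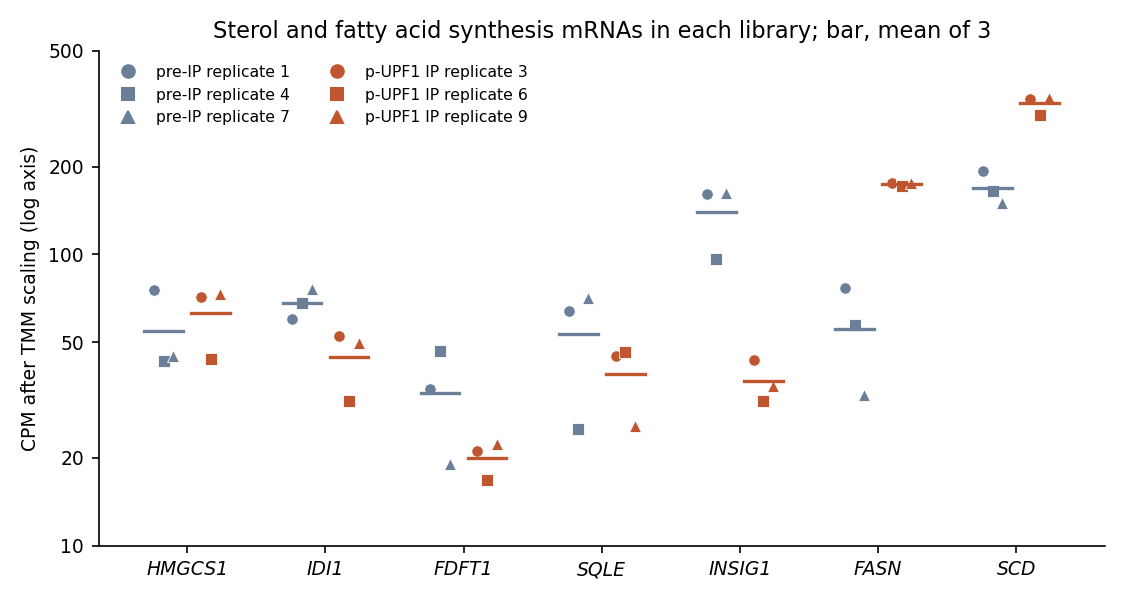
Level of each mRNA in each library, in CPM after TMM scaling on a log axis, with pre-IP in blue-grey, p-UPF1 IP in orange and the mean of 3 libraries as a bar. The p-UPF1 IP libraries lie above all pre-IP libraries for FASN and SCD and below them for IDI1 and INSIG1, and the groups overlap for HMGCS1, FDFT1 and SQLE.

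HMGCS1, the enzyme that commits acetyl units to HMG-CoA, had 59, 12 and 26 counts in pre-IP 1, 4 and 7, and IP 3, 6 and 9 held 233, 120 and 131. As CPM the pre-IP values were 75.5, 43 and 44.9 and the p-UPF1 IP values 71.2, 43.7 and 73.3, and the ranges of the groups nearly coincided. Its log2 fold change was 0.16 (SE 0.36, 95% interval -0.59 to 0.91, adjusted p = 0.790 by edgeR), the closest to 0 of the 7.

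IDI1, the isopentenyl diphosphate isomerase, stood at 60.1, 68.0 and 76.0 CPM in pre-IP and at 52.5, 31.3 and 49.8 in the p-UPF1 IP. Every p-UPF1 IP library was below every pre-IP library, yet the log2 fold change of -0.61 (SE 0.34, interval -1.32 to 0.11) missed the threshold (adjusted p = 0.221). IDI1 overlaps IDI2-AS1 on the opposite strand, which had 0 counts in pre-IP and 8 in the p-UPF1 IP, and HMGCS1 and FDFT1 each overlap an opposite-strand transcript that has no row under its symbol in the table used.

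FDFT1, squalene synthase, was the least counted of the 7, with 27, 13 and 11 counts in pre-IP and 69, 46 and 40 in the p-UPF1 IP. Its CPM were 34.5, 46.5 and 19 in pre-IP and 21.1, 16.7 and 22.4 in the p-UPF1 IP, so that pre-IP 7 lay within the p-UPF1 IP range (log2 fold change -0.69, SE 0.47, adjusted p = 0.322). SQLE, squalene epoxidase, had CPM of 64.0, 25.1 and 70.8 in pre-IP and 44.9, 46.2 and 25.7 in the p-UPF1 IP. One library in each group was low, pre-IP 4 with 7 counts and IP 9 with 46. The SQLE groups overlapped (log2 fold change -0.51, SE 0.39, interval -1.34 to 0.32, adjusted p = 0.393).

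These intervals leave room for changes of more than 1 log2 unit downward in IDI1 (-1.32), FDFT1 (-1.67) and SQLE (-1.34), so a missed threshold does not show equal levels. With library totals alone the 4 sterol enzymes had positive values, 1.71 for HMGCS1 (adjusted p = 0.00285), 0.96 for IDI1 (adjusted p = 0.0486), 0.88 for FDFT1 (adjusted p = 0.145) and 0.96 for SQLE (adjusted p = 0.0731), all below the median of 1.63 of all genes on that scale except HMGCS1.

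INSIG1, the sterol-sensing retention protein, was the one member that fell. It had 126, 27 and 94 counts in the 3 pre-IP libraries and 142, 86 and 63 in the 3 p-UPF1 IP libraries, whose totals were mostly larger. Its levels were 161, 96.7 and 162 CPM in pre-IP and 43.4, 31.3 and 35.2 CPM in the p-UPF1 IP. The lowest pre-IP library, pre-IP 4, was still more than 2-fold above the highest p-UPF1 IP library. The mean went from 140.1 ± 37.6 to 36.6 ± 6.15 CPM (SD, n = 3), a 3.87-fold decrease (log2 fold change -1.95, SE 0.32, adjusted p = 0.000476 by edgeR), and 391 of the 8070 tested genes had a lower value. The call held in 20 of 21 alternatives (log2 fold changes from -2.11 to -1.77) and ended with library totals alone, where the value was -0.43 (adjusted p = 0.343). Its paralog INSIG2 was too thinly counted to test, with 22 counts over the pre-IP and 26 over the p-UPF1 IP libraries.

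FASN, the multifunctional fatty acid synthase, had 60, 16 and 19 counts in pre-IP and 576, 472 and 315 in the p-UPF1 IP. These were 76.8, 57.3 and 32.8 CPM in pre-IP and 176, 172 and 176 CPM in the p-UPF1 IP, where the 3 libraries were almost level. The mean rose from 55.6 ± 22.0 to 175 ± 2.44 CPM (SD, n = 3), 3.11-fold (log2 fold change 1.64, SE 0.33, adjusted p = 0.00236 by edgeR), with 801 tested genes above it. The call was lost with the trend of fold change on transcript GC content removed (0.76, adjusted p = 0.123). With the length trend removed it was kept at 1.19 (adjusted p = 0.0232).

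SCD, the stearoyl-CoA desaturase, was the most counted of the 7, with 151, 46 and 87 counts in pre-IP and 1122, 828 and 616 in the p-UPF1 IP. Its CPM were 193, 165 and 150.3 in pre-IP and 343, 301 and 345 in the p-UPF1 IP, with a gap between the groups. The mean rose from 169 ± 21.8 to 329.5 ± 24.4 CPM (SD, n = 3), 1.94-fold (log2 fold change 0.96, SE 0.29, adjusted p = 0.0282 by edgeR). The call of SCD was lost without pre-IP 7 (adjusted p = 0.0830), IP 3 (0.0977), IP 6 (0.0554) or IP 9 (0.0673), and with the length trend removed (0.73, adjusted p = 0.0777). SCD has a processed copy, SCDP1, with no row under that symbol in the table used, so how reads that match both were counted is not known.

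**Figure D2:**
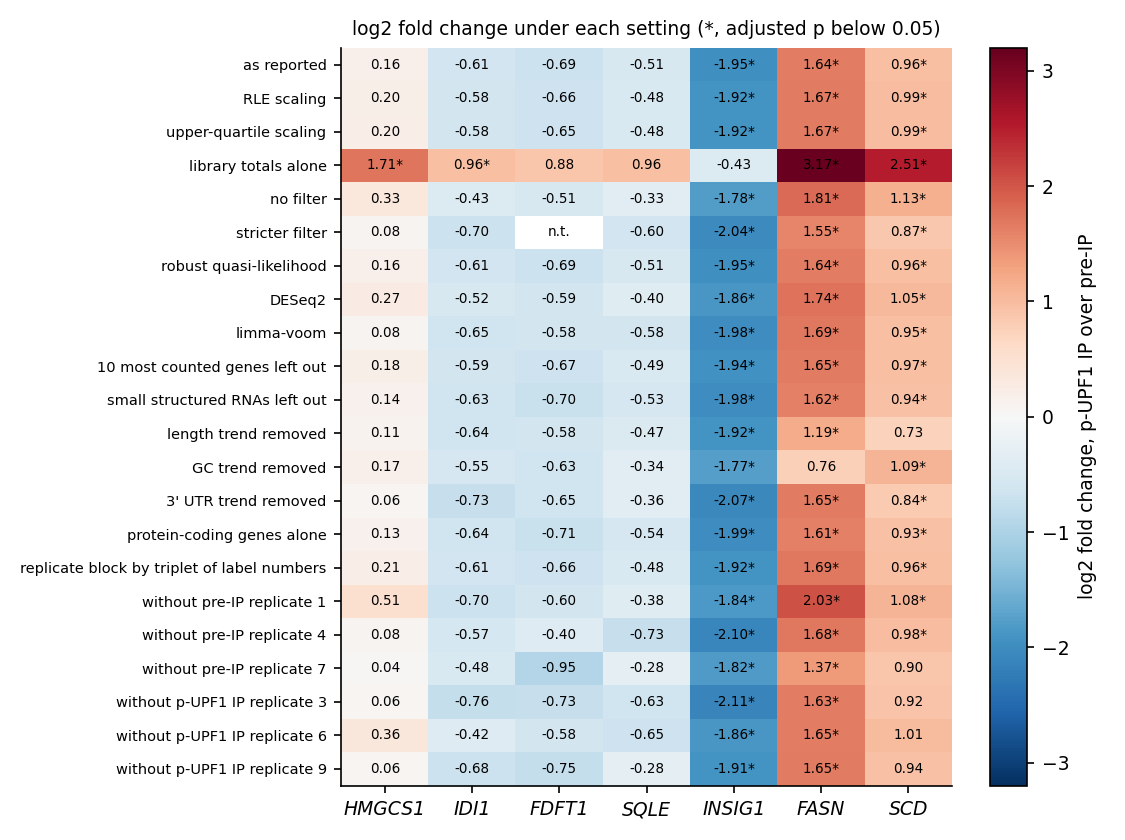
log2 fold change of each mRNA (columns) under each setting (rows), in blue where lower and red where higher in the p-UPF1 IP, with an asterisk at an adjusted p below 0.05 and n.t. where a gene was not tested. INSIG1 is negative and FASN and SCD are positive in every row, while IDI1, FDFT1 and SQLE change sign with library totals alone.

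Shares and ratios within a library were added after the fold changes had been seen. The way the counts of the 7 mRNAs divide within a library does not depend on scaling between libraries. INSIG1 made up 24.2%, 19.3% and 29.2% of the members' counts in pre-IP and 5.77%, 4.87% and 4.85% in the p-UPF1 IP. FASN went from 11.5%, 11.4% and 5.90% to 23.4%, 26.7% and 24.2%, and SCD from 29%, 32.9% and 27.0% to 45.6%, 46.9% and 47.4%. The share of HMGCS1 overlapped between the groups, with a mean of 9.33% ± 1.76 in pre-IP and 8.78% ± 1.74 in the p-UPF1 IP (SD, n = 3). IDI1 (12.1% ± 2.64 to 6.24% ± 1.18) and FDFT1 (5.96% ± 3.01 to 2.83% ± 0.236) took smaller shares with no overlap between the groups, and SQLE overlapped. The shares of a library divide a fixed whole, so larger shares of FASN and SCD leave less for the others. A smaller share alone does not show that an mRNA fell, and the FDFT1 groups overlapped in CPM.

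**Figure D3:**
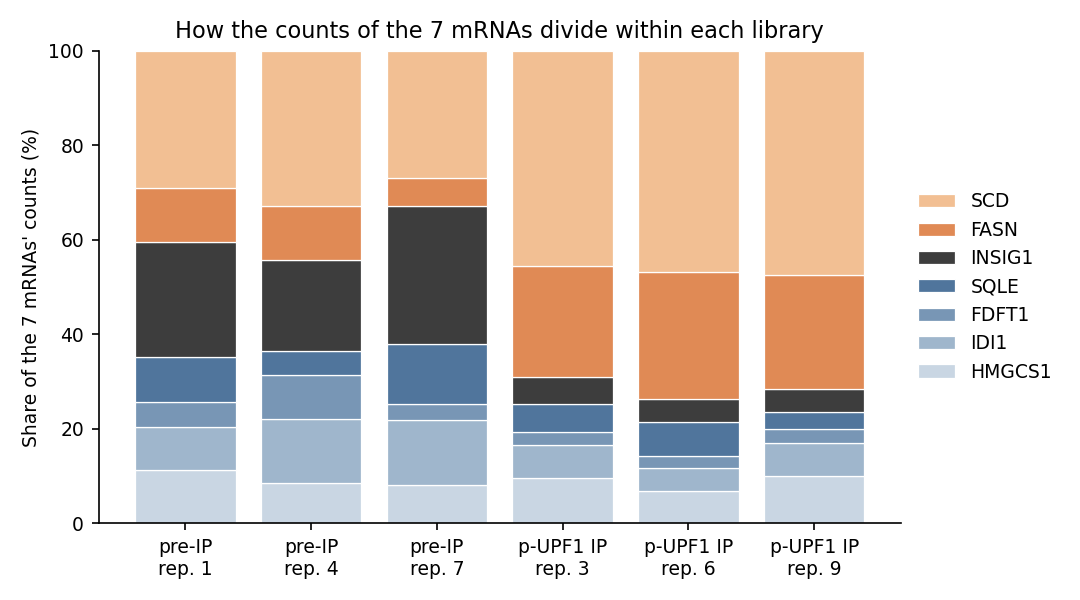
Share of the 7 mRNAs' counts taken by each mRNA, in percent, with 1 bar per library. FASN and SCD, in orange, together fill most of each p-UPF1 IP bar, and the dark band of INSIG1 narrows from 19.3% or more in pre-IP to 5.77% or less.

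Ratios of counts were then taken pair by pair. There were 4.06, 5.49 and 5.0 counts of FASN per count of INSIG1 in the p-UPF1 IP and 0.476, 0.593 and 0.202 in pre-IP, a 12.5-fold difference. For SCD per count of INSIG1 the ratios were 7.90, 9.63 and 9.78 against 1.20, 1.70 and 0.926, a 7.33-fold difference. Counts of HMGCS1 per count of INSIG1 were 1.64, 1.40 and 2.08 against 0.468, 0.444 and 0.277, a 4.36-fold difference. INSIG1 was thus lower relative to each of the other 6, and FASN higher relative to each of the other 6, with no overlap between groups in any of these pairs. Within the fatty acid arm there were 0.513, 0.570 and 0.511 counts of FASN per count of SCD in the p-UPF1 IP and 0.397, 0.348 and 0.218 in pre-IP, with no overlap. The groups did not overlap in 16 of the 21 pairs, beside 38.7% of all pairs of the 6670 tested genes with a count in every library. INSIG1 or FASN, each already past the test, was in 11 of those 16 pairs. Of the 10 pairs without either, 5 did not overlap. Those 5 include the pairs of SCD, also past the test, with HMGCS1, IDI1 and FDFT1. The others of the 5 were HMGCS1 with IDI1 and HMGCS1 with FDFT1. The 21 pairs come from 7 genes and are not independent. The 38.7% was not matched for pairs with called genes, so no excess is read from the count. Each of those 16 had a two-sided exact permutation p of 0.1, the smallest that 3 libraries against 3 allow (Benjamini-Hochberg 0.131 over the 21 pairs), so none passes 0.05. IDI1 per count of FDFT1 differed by a factor of 1.01 between the groups (exact permutation p = 1), and its ratios overlapped.

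Per kilobase of transcript the order of the 7 levels changed. In pre-IP INSIG1 was highest (46.5 ± 12.5 CPM per kb, SD, n = 3), overlapping SCD (31.6 ± 4.07). IDI1 (20.2 ± 2.36), SQLE (18 ± 8.34), HMGCS1 (15.5 ± 5.20) and FDFT1 (12.5 ± 5.19) followed, and FASN was last (6.49 ± 2.57). From IDI1 on, each overlapped its neighbour, while SCD lay clear of IDI1. SCD led in the p-UPF1 IP (61.5 ± 4.55 CPM per kb), clear of the other 6. FASN was next (20.4 ± 0.285), overlapping HMGCS1 (17.9 ± 4.71). INSIG1, at 12.2 ± 2.04, was sixth, overlapping IDI1 and SQLE (13.2 each), and FDFT1 was last (7.54 ± 1.11), below every INSIG1 library. Lengths are those of the transcripts listed above, so the order holds for those transcripts.

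In a wider list of 22 enzymes of mevalonate and cholesterol synthesis, which includes 4 of the 7, 18 were tested, 0 rose and 2 fell, which is 11.1% lower beside 10.9% of all tested genes. At an unadjusted p below 0.05, 2 were higher, and DESeq2 called 1 higher and limma-voom 0. The median log2 fold change was -0.32 beside 0.10 for all tested genes, and -0.13 over the 14 that are not among the 7. The 2 that fell were CYP51A1, lanosterol demethylase, and LBR, a sterol reductase that also anchors lamin B. CYP51A1 had 88.3, 96.7 and 89.8 CPM in pre-IP and 29.6, 33.5 and 20.1 in the p-UPF1 IP (log2 fold change -1.70, SE 0.33, adjusted p = 0.00199). This gap was wide against the spread within either group. The call of CYP51A1 ended with library totals alone (-0.19, adjusted p = 0.681). LBR, the most counted gene of the list, averaged 183 ± 26.3 CPM in pre-IP and 93.4 ± 6.28 in the p-UPF1 IP (log2 fold change -0.97, adjusted p = 0.0216). The call of LBR was lost without pre-IP 4 or any single p-UPF1 IP library and with no filter (highest adjusted p of all settings, 0.124), and its value was 0.60 with library totals alone.

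Among 28 genes of fatty acid synthesis, elongation and desaturation, 24 were tested, 4 rose and 1 fell, with a median of 0.22. Without FASN and SCD, 2 of 22 rose (9.09%, beside 8.81% of all tested genes) and 1 fell, with a median of 0.09. Besides FASN and SCD the risers were ACLY, which makes cytosolic acetyl-CoA from citrate, and ACSL3, which activates long-chain fatty acids. ACLY had 89.6, 85.9 and 77.8 CPM in pre-IP and 178, 171 and 180.1 in the p-UPF1 IP (log2 fold change 1.06, SE 0.28, adjusted p = 0.0135). Its call ended without IP 3 or IP 9 (adjusted p up to 0.0585). ACSL3 (1.24, SE 0.40, adjusted p = 0.0362) rested on 42 counts in pre-IP and was called in 13 of 21 alternatives. It was lost without pre-IP 1, pre-IP 4, IP 6 or IP 9, with limma-voom (log2 fold change 1.12) and with the length (0.995), GC (1.147) or 3' UTR (1.12) trend removed. The elongase ELOVL2 fell (-3.07, SE 0.65, adjusted p = 0.00333), with 47 counts over the pre-IP and 27 over the p-UPF1 IP libraries, a call lost with library totals alone (-1.58, adjusted p = 0.0586). Scaled to library size, its p-UPF1 IP counts of 11, 12 and 4 fell short of the filter's minimum. ELOVL2 was thus tested through its pre-IP counts, and its fold change rests on few p-UPF1 IP counts. ACACA, whose product malonyl-CoA feeds FASN, had 64.6 ± 16.1 and 111 ± 16.7 CPM (0.81, adjusted p = 0.0794) and was named after its value was seen.

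**Figure D4:**
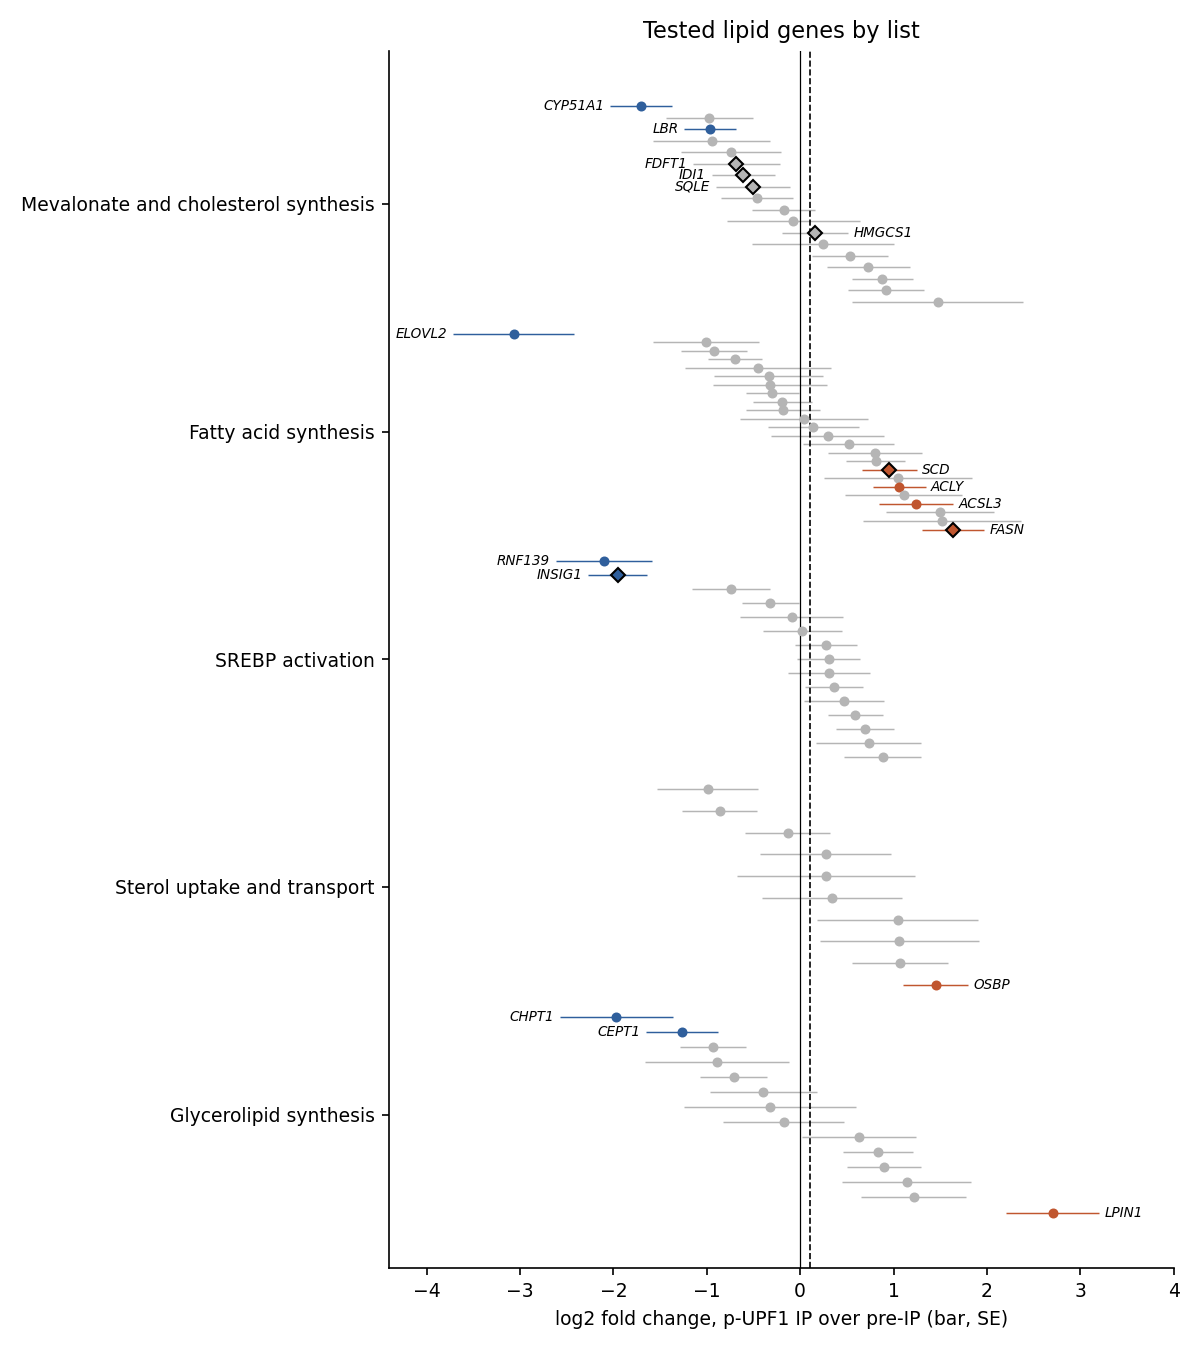
log2 fold change of each tested gene of 5 lipid lists with its SE, in orange where it rose, blue where it fell and grey where it did not pass; diamonds mark the 7 mRNAs and the dashed line the median of all tested genes, 0.10. FASN and SCD lie with ACLY and ACSL3 on the right of the fatty acid list, and INSIG1 lies with RNF139 on the left of the SREBP list.

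Of 16 genes of SREBP activation and its regulators 15 were tested, 0 rose and 2 fell (13.3% lower, beside 10.9% of all tested genes), with a median of 0.31. Without INSIG1, 1 of 14 fell (7.14%). At an unadjusted p below 0.05, 2 were higher, and DESeq2 and limma-voom called 0 higher. Beside INSIG1 the other was RNF139, a sterol-responsive ubiquitin ligase of the endoplasmic reticulum (45.1 ± 25.1 to 10.9 ± 4.83 CPM, log2 fold change -2.10, SE 0.51, adjusted p = 0.00854). The call of RNF139 ended without IP 3 or IP 9 and with library totals alone (-0.63, adjusted p = 0.357). The most counted gene of the list was VCP, an ATPase that extracts ubiquitinated proteins, at 183 ± 57.0 and 294 ± 15.1 CPM (0.70, adjusted p = 0.120). The SREBP genes themselves, SREBF1 (0.73, adjusted p = 0.390) and SREBF2 (0.88, adjusted p = 0.145), and their escort SCAP (0.02, adjusted p = 0.9754) did not pass. These 3 were named for their role, after their values were seen.

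Of 14 genes of sterol uptake, transport, storage and efflux, 10 were tested, 1 rose (beside 8.81% of all tested genes) and 0 fell, with a median of 0.31. At an unadjusted p below 0.05, 1 was lower, and DESeq2 and limma-voom called 0 lower. The riser was OSBP, an oxysterol-binding lipid exchanger, also the most counted gene of that list. It had 35.8, 43 and 27.6 CPM in pre-IP and 76.1, 91.0 and 119 in the p-UPF1 IP (log2 fold change 1.45, SE 0.35, adjusted p = 0.00741), and its call ended without IP 9 (adjusted p = 0.0573).

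In a comparison list of 17 glycolytic enzymes, a pathway outside lipid synthesis, 16 were tested, with a median of 0.13. By the edgeR test used throughout 0 rose and 0 fell, beside 8.81% higher and 10.9% lower of all tested genes. With 16 genes, these counts do not show unchanged levels. At an unadjusted p below 0.05, 3 were higher and 2 lower. DESeq2 called 1 higher, limma-voom 1 lower, and robust edgeR 1 lower. Its most counted gene, ENO1, averaged 604.9 ± 140.1 CPM in pre-IP and 936.1 ± 37.7 in the p-UPF1 IP (0.63, adjusted p = 0.216).

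The mean profile of the 7 mRNAs over the 6 libraries overlapped between the groups, and the members changed in both directions. On centred log2 CPM it was 0.30, -0.11 and -0.07 in pre-IP and 0.12, -0.22 and -0.03 in the p-UPF1 IP. The 5 genes nearest to it, of 4028 at or above the median level, were TTI1, RPL7, AP3B1, BBS2 and SYNCRIP, with root mean square differences of 0.0668 to 0.110 log2 units over 6 libraries. None of the 5 was called (log2 fold changes from -0.24 to 0.01).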

How the data were processed

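The authors deposited raw counts of reads per gene symbol, 1 column per library. The submitters' processing notes name cutadapt 1.15, STAR 2.5.2b, Subread 1.5.0p3 with featureCounts, and hg19. Annotation, strandedness and handling of multi-mapping reads: not given in the sources used here, so a gene and its antisense or overlapping partner cannot be told apart. Per the labels' protocols, RNA depleted of ribosomal RNA was ligated to adapters at both ends and amplified by PCR, with no molecular identifiers described.

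All genes were tested with edgeR 4.0.16 (R 4.3.3) by its quasi-likelihood F-test after TMM, keeping genes by filterByExpr at a minimum count of 10, with Benjamini-Hochberg adjustment at 0.05. The procedure was tested on simulated data. A standard error is the log2 fold change divided by the square root of F, and log2 CPM used a prior count of 2. Other settings were scaling by RLE, by upper quartile or by library totals alone, no filter, a minimum count of 30, robust quasi-likelihood, DESeq2 1.42.0, limma-voom (limma 3.58.1), the 10 most counted genes or the 2340 small structured RNA symbols left out, trends on transcript length, GC content or 3' UTR length removed, and each library left out. Protein-coding genes alone and a replicate block by triplets of label numbers were added after seeing the data.

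The members and lists were chosen with earlier results of these data known. Named genes are the members and, per lipid list, up to 5 genes past the threshold and the most counted one. ACACA, SREBF1, SREBF2 and SCAP, named otherwise, are marked. INSIG2 (a paralog), VIM and PAX2 (from the HEK293 genes) and ENO1 (the most counted glycolytic gene) were also named outside that rule. Features came from GENCODE 29 by symbol (best APPRIS rank, then longest coding sequence), an annotation of a later build, so no coordinates are given. The shares, ratios and stop-codon windows were chosen after values were seen. The glycolytic list was dropped once its result was known and then restored. A search of the members' promoters for sterol-response and CCAAT motifs, and fold changes among genes of like length and GC content, were also computed and are not used here. A few items are not reported here.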

Additional observations from a re-analysis of the deposited data

How the results depend on the processing

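The groups share no replicate numbers, and the labels do not pair libraries. A replicate block by triplets of label numbers (1 to 3, 4 to 6 and 7 to 9), added after seeing the data, gave 780 genes higher and 876 lower and changed no call of a named gene. Under the block the uptake median was 0.737, 2 glycerolipid genes were higher, and 1 glycolytic gene was higher and 1 lower. Deviations from the group means correlated across genes at 0.092, 0.172 and 0.102 within the triplets. Every library correlated best with its own triplet. The deviations within a group cancel out, so these correlations are not independent of each other. They are a weak hint from the data and do not show a shared design. The direction of INSIG1, FASN, SCD and HMGCS1 was the same in all 21 alternatives. Library totals alone turned IDI1 (0.96), FDFT1 (0.88), SQLE (0.96), LBR (0.60) and CEPT1 (0.29) positive, and 4874 genes were then higher and 156 lower, against 711 and 880. On that scale 4 members were higher and 0 lower. The counts there were 10 higher and 0 lower for mevalonate enzymes (median log2 fold change 1.21), 16 and 0 for fatty acid enzymes (1.73), 12 and 0 for SREBP genes (1.85), 7 higher for uptake genes (1.84), 6 and 0 for glycerolipid genes (1.29) and 13 higher for glycolytic enzymes (1.70). Apart from scaling the causes of the changes that follow were not tested.

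With no filter 1101 genes were higher and the median of all genes was 0.41. That median is over 15045 genes and not the 8070 of the main test, so the 2 whole-table medians cover unlike sets. In the lists 1 mevalonate gene was then lower (median -0.145), the medians of the fatty acid, SREBP and uptake lists were 0.389, 0.48 and 0.486, 3 glycerolipid genes were higher and 1 lower (-0.088), and 1 glycolytic gene was higher. The stricter filter left FDFT1 untested. It gave 2 fatty acid genes lower (median 0.43), 1 SREBP gene and 1 glycolytic gene lower, and medians of -0.581 for uptake and 0.536 for glycerolipid genes. Both of these medians changed sign, but they cover only 4 uptake genes of 10 and 9 glycerolipid genes of 14. DESeq2 called 1 mevalonate gene and 1 glycolytic gene higher and 1 glycerolipid gene lower (uptake median 0.479). With limma-voom the uptake and glycerolipid medians were 0.693 and 0.681, and 1 glycolytic gene was lower, as with robust quasi-likelihood, small structured RNAs left out and protein-coding genes alone.

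Removing the length trend left 367 genes lower, 1 member higher, mevalonate, SREBP and glycolytic medians of -0.117, 0.053 and 0.411, 1 glycerolipid gene lower and 1 glycolytic gene higher. Removing the GC trend left 466 genes higher, 1 member higher, 2 fatty acid genes higher (median 0.028), uptake and glycerolipid medians of 0.001 and -0.608, and 1 glycolytic gene lower. Removing the 3' UTR trend left 564 genes lower, 1 glycerolipid gene lower, and 1 glycolytic gene higher and 1 lower.

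With each library left out, 273 to 795 genes were higher and 518 to 833 lower, the lowest counts being those without IP 3. Members higher ranged from 1 to 2. Mevalonate genes higher ranged from 0 to 1 and lower from 1 to 2. Fatty acid genes ranged from 1 to 3 higher and 1 to 2 lower (median 0.133 to 0.597). SREBP genes ranged from 0 to 1 higher and 1 to 2 lower. Uptake genes ranged from 0 to 1 higher and 0 to 2 lower (0.349 to 0.52), glycerolipid genes from 1 to 2 higher and 0 to 2 lower (-0.271 to 0.209), and glycolytic genes from 0 to 2 higher. Members had as few as 7 counts in a library. For members that did not pass, the data do not tell apart the values within the intervals given. Whether more reads would narrow those intervals was not tested.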

Other observations

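Genes of glycerolipid and phospholipid synthesis, which use the fatty acids that FASN and SCD make, were examined as a further list. Of 18 genes 14 were tested, 1 rose and 2 fell (7.14% higher and 14.3% lower, beside 8.81% and 10.9% of all tested genes), and 11 did not pass, with a median log2 fold change of -0.25 beside 0.10 for all tested genes. LPIN1, a phosphatidate phosphatase and a known SREBP target, had 7, 2 and 3 counts in pre-IP and 178, 133 and 71 in the p-UPF1 IP. Its levels were 8.96, 7.16 and 5.18 CPM in pre-IP and 54.4, 48.4 and 39.7 CPM in the p-UPF1 IP (log2 fold change 2.70, SE 0.50, adjusted p = 0.00131 by edgeR). It was called in 21 of 21 alternatives (log2 fold changes from 2.48 to 4.19). Its pre-IP counts fell short of the filter's minimum count of 10, so LPIN1 was tested through its p-UPF1 IP counts. The fold change therefore rests on few pre-IP counts.

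The phospholipid-forming transferases CHPT1 and CEPT1 fell. CHPT1 averaged 38.6 ± 25.6 CPM in pre-IP and 9.39 ± 4.996 in the p-UPF1 IP (SD, n = 3), a log2 fold change of -1.97 (SE 0.60, edgeR adjusted p = 0.0299). CEPT1 averaged 58.6 ± 17.2 and 25.2 ± 8.08 CPM (-1.26, SE 0.39, adjusted p = 0.0302). CHPT1 was called in 14 of 20 alternatives and was lost without pre-IP 4, IP 3 or IP 6, with library totals alone (-0.30) and with the length or 3' UTR trend removed. CEPT1 was called in 12 of 21. It was lost without any 1 library except pre-IP 4, with no filter, with DESeq2 and with the length trend removed. With library totals alone the value of CEPT1 turned positive (0.29). The most counted gene of the list, AGPAT6, had 68.2 ± 33.0 and 116 ± 28.0 CPM (0.84, adjusted p = 0.122).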
